A study of Mus musculus with 9 samples.

Results

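The cytosolic ribosomal protein genes of thymic invariant natural killer T (iNKT) cells were described across 9 RNA libraries. They were chosen by name and annotation alone. Members were the protein-coding genes whose symbol is Rpl or Rps followed by a number, with the letter endings of the family, together with Rplp0, Rplp1, Rplp2 and Rpsa. The rule found 80 genes among the 21883 genes of the table and among its 13109 protein-coding genes. Of these, 49 encode large-subunit (60S) and 31 small-subunit (40S) proteins. They lie on 19 chromosomes, with 14 on chromosome 7 and 4 on the X chromosome.

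Cells were sorted from the thymus of C57BL/6 mice, with 3 libraries in each group. WT stage 2 cells (CD44 high, NK1.1 low) and WT stage 3 cells (NK1.1 high) came from mice of 6 weeks. Med23-deficient stage 2 cells carried floxed Med23 alleles deleted by Cd4-Cre, which acts by the double-positive stage of thymocyte development and is therefore not restricted to iNKT cells. Med23 is a subunit of the Mediator complex, which links transcription factors to RNA polymerase II. The age of the Med23-deficient mice, the Cre status of the WT mice and the number of animals behind a library were not given in the labels. The p-values below therefore measure the spread between libraries, which may be technical. The paper describes its sequencing data as standing for 3 independent experiments, but the labels do not tie libraries to experiments. Values are FPKM, fragments scaled by transcript length and by the library's mapped fragments, a scale per length on which genes can be compared with each other. No read counts were used, and library depth is unknown. In bulk RNA, fewer cells of a type and less RNA per cell cannot be told apart.

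Med23 itself measured 5.51, 5.15 and 6.74 FPKM in WT stage 2 libraries and 4.80, 3.60 and 3.92 in Med23-deficient libraries. The groups did not overlap, although the difference did not pass limma's adjusted threshold (log2 fold change -0.41, adjusted p = 0.552), and a value over the whole gene does not separate deleted from remaining exons. Zbtb16, the transcription factor PLZF that defines the lineage, measured 87.96 to 112.43 FPKM in WT stage 2, 68.08 to 90.85 in Med23-deficient and 22.72 to 33.37 in WT stage 3 libraries, and it fell between stages (log2 fold change -1.85, limma's adjusted p = 0.0122). Klrb1c, which encodes NK1.1, spanned 7.65 to 26.24 FPKM in WT stage 2, 57.27 to 95.09 in WT stage 3 and 2.61 to 4.60 in Med23-deficient libraries. Of the markers listed, 3 of 6 for B cells, 6 of 8 for myeloid cells and 1 of 7 for erythroid cells were present in the data. Summed over those present, B cell markers reached at most 0.51 FPKM, myeloid markers 2.33, the erythroid marker 0.75 and 8 double-positive thymocyte markers 9.55 in any library. The number of genes above 0 ranged from 15584 to 17333 per library and was highest in the replicate 3 library of each group (16670, 17151 and 17333).

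Ribosomal proteins coat the ribosomal RNA of the 40S subunit, which decodes mRNA, and of the 60S subunit, which forms the peptide bond. Each ribosome takes nearly all of them in equal number, and cells that grow or divide make many ribosomes. Their mRNAs typically begin with a C followed by a run of pyrimidines, the terminal oligopyrimidine tract, through which mTORC1 and LARP1 control their translation.

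The first bases of the members were read from RefSeq windows of the mouse build GRCm38.p6, the assembly also called mm10. Windows were matched by symbol for 59 of the 80 members, giving 70 annotated starts. Each line below shows 15 bases before and 15 bases from the start onward, 5′ to 3′, with the longest run of C or T in capitals. These are shown because the run of pyrimidines is the sequence feature for which the family is known, in members with some of the longest runs or among those whose values are described below.

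Rpl7a, chr2:26910792-26910821 (plus strand): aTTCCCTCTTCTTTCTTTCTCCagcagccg
Rpl27a, chr7:109519180-109519209 (plus strand): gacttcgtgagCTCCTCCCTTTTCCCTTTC
Rpl35, chr2:39005117-39005146 (minus strand): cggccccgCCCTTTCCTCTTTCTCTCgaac
Rpl15, chr14:18270972-18271001 (minus strand): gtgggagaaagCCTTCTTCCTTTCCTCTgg
Rpl14, chr9:120571502-120571531 (plus strand): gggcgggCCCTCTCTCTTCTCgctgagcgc
Rpl28, chr7:4792950-4792979 (plus strand): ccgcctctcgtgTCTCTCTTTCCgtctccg
Rps6, chr4:86857353-86857382 (minus strand): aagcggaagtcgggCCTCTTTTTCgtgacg
Rps27, chr3:90213634-90213663 (minus strand): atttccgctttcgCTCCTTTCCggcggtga

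A run of at least 8 pyrimidines (C or T on the transcribed strand) was present in 27 of the 70 windows of members, 38.6%, against 11.9% of the 32781 windows of other genes. The run spanned the annotated start in 16 member windows, 22.9%, against 3.69% of other windows. The lines printed above all come from these 16 windows. The longest run, of 21 bases, was in Rpl7a. By gene, 26 of the 59 matched members, 44.1%, had such a run in at least 1 window, against 13.8% of other genes. Most matched members thus had no such run within these windows. Among them are the following, which are shown for contrast.

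Rplp0, chr5:115559452-115559481 (plus strand): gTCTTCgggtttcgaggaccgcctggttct
Rpl23, chr11:97782425-97782454 (minus strand): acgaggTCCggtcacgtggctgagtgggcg

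In these windows the annotated start may lie some bases from the start used in iNKT cells, and a window without a run says only that the letters are not there. A C stood at the annotated start in 28.6% of member windows and 16.3% of other windows.

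The family ranked among the most abundant mRNAs of the cells. The median member had a mean of 166 FPKM over 9 libraries, against 5.67 for the 11777 genes whose mean reached 1 FPKM. Of the 80 members, 1 lay above 1000 FPKM, 13 between 500 and 1000, 42 between 100 and 500, 23 between 10 and 100 and 1 below 1. Together the members made up 17.7%, 16.9% and 14.4% of nuclear protein-coding FPKM in the WT stage 2 libraries. The share was 16.9%, 15.0% and 12.8% in WT stage 3 and 16.0%, 16.2% and 14.0% in Med23-deficient stage 2 libraries. The group means were 16.3% ± 1.72, 14.9% ± 2.05 and 15.4% ± 1.22 (SD, n = 3 each), so the groups overlapped and their means differed by less than the SD of the WT stage 2 libraries. The share was taken over nuclear protein-coding genes because a single non-coding gene model, Gm23935, held 62.2% to 71.9% of all summed FPKM.

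Levels differed far more between members than between groups. Rplp1, an acidic protein of the P stalk that recruits elongation factors to the ribosome, had the highest level, at 2200 ± 342 FPKM in WT stage 2, 1935 ± 364 in WT stage 3 and 2075 ± 314 in Med23-deficient cells. It alone held 9.15% of the members' FPKM, and the 5 most abundant members held 25.4%. Next were Rps24, Rps23, Rpl8 and Rpl19, with means over all libraries of 960, 953, 924 and 834 FPKM. The order of these 4 was not separated by the spread of the libraries, since the SD of Rps24 alone was 119 FPKM in WT stage 2. At the low end stood Rps15a (41.9), Rpl35a (36.9), Rpl15 (33.2), Rpl18 (32.1) and Rps27l (11.6 FPKM). Rpl39l, a copy of the exit tunnel gene Rpl39 known for its use in the testis, was listed at 0.61 FPKM in 1 WT stage 2 library and at 0 in the other 8. The order of the 80 members was nearly the same in each group, with a Spearman rho across genes of 0.992 between WT stage 2 and WT stage 3 and 0.993 between WT and Med23-deficient stage 2. Genes are not independent replicates, and these libraries share annotation and processing.

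**Figure D1:**
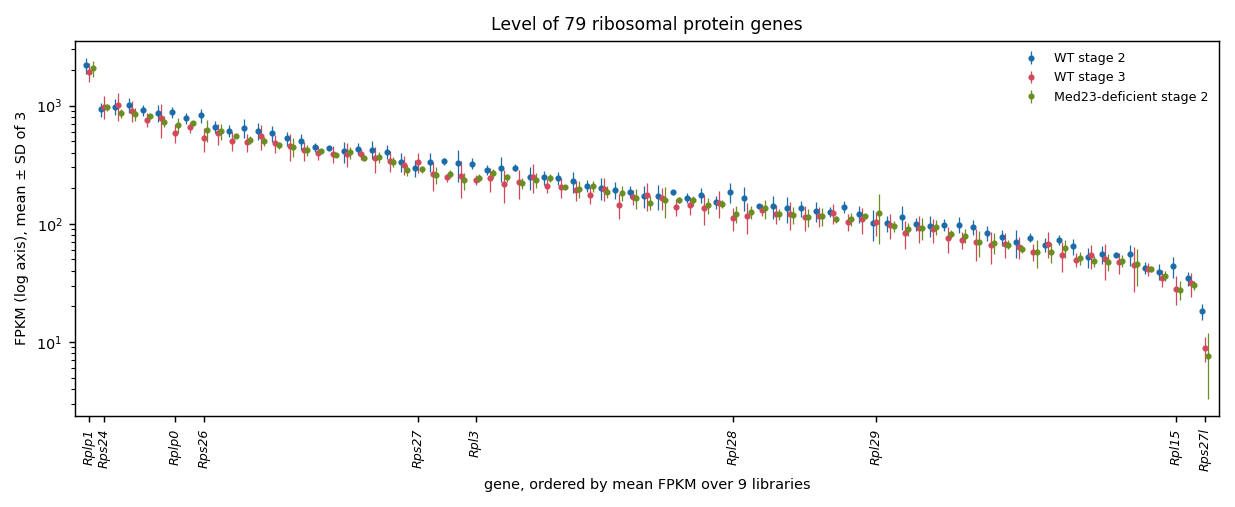
Mean FPKM (log axis) with the SD of 3 libraries for the 79 ribosomal protein genes with a mean of at least 1 FPKM, ordered by level, for each of the 3 groups, with a few genes named. Rplp1 stands above all others and Rps27l lies lowest, at 18.3 ± 2.86 FPKM in WT stage 2 against 8.88 ± 2.15 and 7.63 ± 4.31 in the other groups.

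The members moved together from library to library, also within a group. Each member's log2(FPKM + 1) was set against its own mean over 9 libraries. The median member lay at 0.26, 0.26 and -0.08 in WT stage 2, at 0.18, -0.04 and -0.39 in WT stage 3 and at -0.01, 0.05 and -0.25 in Med23-deficient libraries. Over all genes whose mean reached 1 FPKM the same medians stayed between -0.05 and 0.07. The replicate 3 library was thus the lowest of its group in all 3 groups. It was the lowest of its group for 74 of 79 members in WT stage 2, for 72 in WT stage 3 and for 67 in Med23-deficient cells, and it is also the library with the most genes above 0. Replicate 3 also had the lowest median of each group for other gene sets. In the same order of groups it lay at 0.03, -0.27 and -0.14 for 9 translation elongation factors. For 118 ribosomal protein pseudogenes it lay at -0.19, -0.33 and -0.15. For 16 regulators of pyrimidine-tract mRNAs it was not the lowest, at -0.03, 0.06 and 0.11. The part of that difference between libraries in the values below was not tested.

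Of the 79 members, 62 had their lowest value of all 9 libraries in WT stage 3 replicate 3, while 32 had their highest in WT stage 2 replicate 1 and 26 in WT stage 2 replicate 2. Large and small subunit genes did not separate, with medians within 0.04 of each other in every library. Across the 9 libraries the median correlation of a member with the median of the others was 0.89, and 38 members reached 0.9. Rpl29 and Rps27a stood apart, at -0.13 and 0.14. These correlations are descriptions over 9 libraries that share groups and scale.

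**Figure D2:**
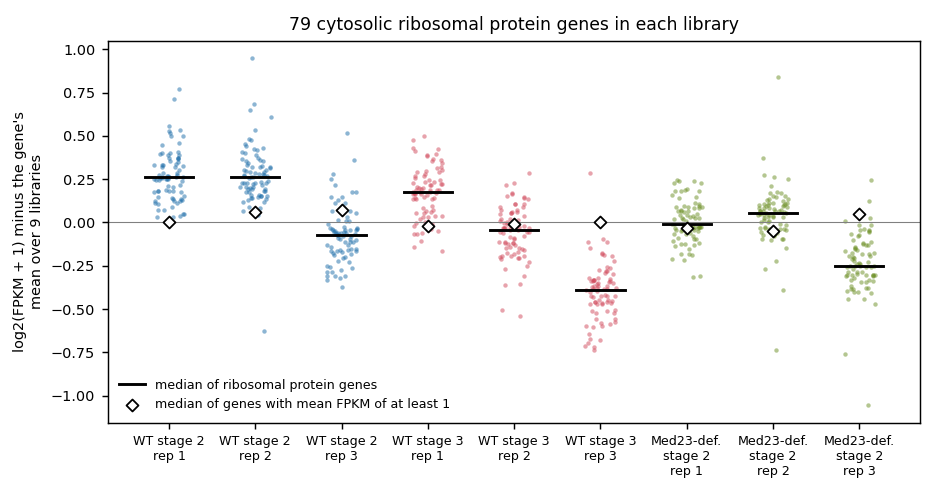
Each point is 1 of 79 ribosomal protein genes in 1 library, as log2(FPKM + 1) minus the gene's mean over 9 libraries, with the members' median as a bar and the median of all genes whose mean reached 1 FPKM as a diamond. The bars span -0.39 to 0.26 while the diamonds stay between -0.05 and 0.07, and the replicate 3 library is lowest in each group.

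The first comparison asked how the family differs between WT stage 3 and WT stage 2 cells, the step at which iNKT cells gain NK1.1. Most members had a lower mean in stage 3, but no member passed the test across all genes. On log2(FPKM + 1), 73 of 80 members had a fold change below 0, with a median of -0.23. By limma, 0 members had an adjusted p of at most 0.05, where 1.67% of the 20689 genes tested did. At an unadjusted p of at most 0.05, 11 members were lower and 0 higher, against 7.79% of all genes tested lower and 5.44% higher. None had a fold change past 2 as well, where 3.6% of all genes did. Those 11 members are 13.8% of the family. Among genes of at least 1 FPKM the share lower was 10.8%, and among 830 other protein-coding genes of at least 30 FPKM it was 23.9%. This order of the members and the other abundant genes depends on the model and on single libraries. With models after Ballgown, ordinary regressions that add library size as a term, 44 members were lower, 55% of the family, against 6.86% of all genes tested and 23.9% of the other abundant genes, and 0 members passed the adjusted threshold.

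The share of fold changes below 0 was 91.2% in the family, 55.3% among genes of at least 1 FPKM and 63.7% among the other abundant genes, whose medians were -0.05 and -0.11. Of the members, 10 had no overlap between the stages, all lower in stage 3 and 0 higher. Among all genes tested 10.4% were lower and 7.36% higher without overlap, and among the other abundant genes 26.6% were lower. When libraries were scaled to equal protein-coding FPKM, the median of the members was -0.14 and that of genes of at least 1 FPKM was 0.03. Without WT stage 3 replicate 3 the median of the members was -0.10, with 54 of 80 below 0. Without replicate 3 of both groups it was -0.21, with 71 below 0. Leaving out WT stage 2 replicate 1 left 5 members lower at an unadjusted p of at most 0.05. That is 6.33% of members, against 7.59% of all genes tested and 19.6% of the other abundant genes. Without WT stage 2 replicate 2 the count was also 5, 6.25% against 7.86% and 17.6%. Leaving out WT stage 3 replicate 1 raised the count to 21, 26.2% against 6.85% and 24.5%.

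Among the small-subunit genes, Rps27l had the largest difference of the family. Rps27l (chr9:66946086-66949516, mm10) is a close copy of Rps27 known as a target of p53. It measured 18.51, 21.04 and 15.33 FPKM in WT stage 2 and 9.17, 10.87 and 6.60 in WT stage 3. Every stage 3 library lay below every stage 2 library. The log2 fold change was -0.98 (SE 0.20, limma's adjusted p = 0.0938), the lowest adjusted p of any member. It passed an adjusted 0.05 in 1 alternative, with the test restricted to genes whose mean reached 1 FPKM (adjusted p = 0.0452), and its adjusted p was between 0.0452 and 0.291 over all alternatives.

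Rps26, a gene mutated in Diamond-Blackfan anaemia, followed among the small-subunit genes, with 903.48, 876.82 and 700.39 FPKM in stage 2 and 593.81, 604.05 and 388.18 in stage 3 (log2 fold change -0.66, SE 0.22, limma's adjusted p = 0.265). The stages did not overlap for Rps26, although it did not pass the adjusted threshold. In contrast Rps27 itself measured 314.58, 337.91 and 243.09 FPKM in stage 2 and 396.69, 336.95 and 265.80 in stage 3, and the stages overlapped. Its log2 fold change of 0.15 (SE 0.20) was the highest of the family. Rps24 and Rps23, at the top of the levels, had differences of 0.06 (SE 0.22) and 0.03 (SE 0.25).

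In the large subunit, Rpl28 showed the greatest difference, from 194.75, 217.44 and 145.61 FPKM in stage 2 to 133.74, 117.39 and 85.98 in stage 3 (log2 fold change -0.73, SE 0.22, limma's adjusted p = 0.216). Rpl15, at 36.30 to 53.13 FPKM in stage 2 and 20.71 to 36.22 in stage 3, differed by -0.62 (SE 0.23). The ranges of Rpl15 nearly touched. Rplp0, the protein that anchors the P stalk, measured 781.95 to 970.35 FPKM in stage 2 and 479.50 to 688.06 in stage 3 (-0.60, SE 0.18, adjusted p = 0.226). Its stalk partners Rplp1 and Rplp2 differed by -0.19 (SE 0.26) and -0.07 (SE 0.23), and their stages overlapped. Rpl3, which reaches towards the peptidyl transferase centre, differed by -0.46 (SE 0.13, adjusted p = 0.177) without overlap.

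The remaining named members by role had overlapping stages. Rpl5 and Rpl11, which with 5S rRNA form the particle that can bind Mdm2, differed by -0.22 (SE 0.15) and -0.42 (SE 0.17). Among the exit tunnel proteins Rpl4, Rpl17 and Rpl39 the differences were -0.40, -0.19 and -0.21. Rps6, the ribosomal substrate of S6 kinase, differed by -0.29 (SE 0.18), and Rpl22, needed for the development of alpha-beta T cells, by -0.40 (SE 0.19). Of the 10 genes listed for Diamond-Blackfan anaemia, 9 had a mean below 0, with a median of -0.24 and 3 at an unadjusted p of at most 0.05. That median is close to the one of the whole family.

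**Figure D3:**
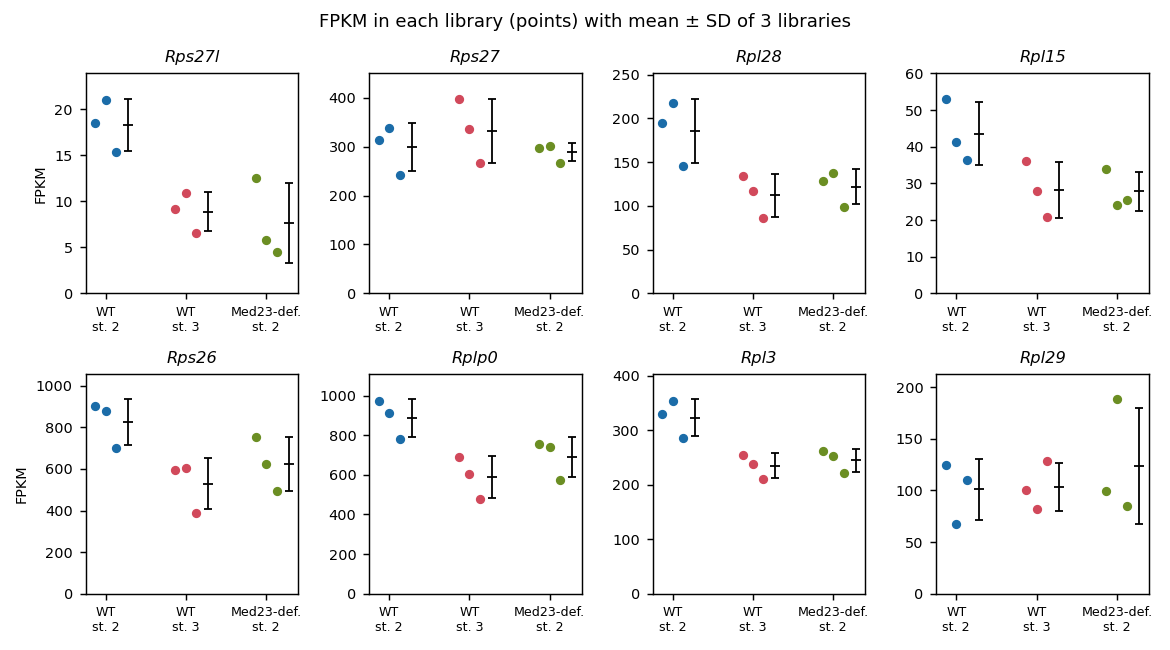
FPKM of 8 ribosomal protein genes in each library (points) with the mean and SD of 3 libraries in each group, with each axis from 0. Rps27l lies lower in both other groups than in WT stage 2, Rps27 overlaps throughout, and Rpl29 has 1 Med23-deficient library at 188.65 FPKM.

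The second comparison asked how the family differs between Med23-deficient and WT stage 2 cells. It shares its WT stage 2 libraries with the first, so the 2 sets of differences are not independent. Here 77 of 80 members had a fold change below 0, with a median of -0.22, and again no member passed the test across all genes. By limma, 0 members had an adjusted p of at most 0.05, where 0.213% of the 20674 genes tested did, and the lowest adjusted p was 0.279, for Rpl35. At an unadjusted p of at most 0.05, 8 members were lower and 0 higher, against 6.02% of all genes tested lower and 3.56% higher. The share lower was 8.39% among genes of at least 1 FPKM and 19.4% among 809 other protein-coding genes of at least 30 FPKM. With the models after Ballgown 21 members were lower, 26.2% of the family, against 4.94% of all genes tested and 18% of the other abundant genes. On the TPM scale 29 were lower, 36.2%, against 7.83% and 27.3%.

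Fold changes lay below 0 for 96.2% of the family, 56.0% of genes of at least 1 FPKM and 65.3% of the other abundant genes, and the medians of the latter groups were -0.05 and -0.09. The groups did not overlap for 12 members, all lower in Med23-deficient cells and 0 higher. Among all genes tested 8.37% were lower and 5.63% higher without overlap, and among the other abundant genes 22.7% were lower. On the protein-coding scale the median of the members was -0.10 and that of genes of at least 1 FPKM was 0.05. Without Med23-deficient replicate 3 the median of the members was -0.12, with 65 of 80 below 0. Without WT stage 2 replicate 3 it was -0.34, and 27 members were lower at an unadjusted p of at most 0.05. That is 33.8%, against 5.81% of all genes tested and 19.2% of the other abundant genes. Without WT stage 2 replicate 1 the count was 5, 6.33% against 5.95% and 18.5%. Without WT stage 2 replicate 2 it was also 5, 6.25% against 5.92% and 14.5%. Without replicate 3 of both groups the median was -0.23 and the count 23, 28.7% against 5.34% and 16.7%.

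Rps27l again had the largest difference. It measured 12.55, 5.85 and 4.49 FPKM in the Med23-deficient libraries, all below the WT stage 2 libraries, with a log2 fold change of -1.26 (SE 0.35, limma's adjusted p = 0.299). Its first replicate stood well above the other 2, and the SD of 4.31 FPKM was 56.6% of the mean. By limma its unadjusted p was 0.0105, and it was the 1 member that also changed by a factor of 2 or more, where 2.11% of all genes tested met both limits. With single libraries left out the difference ran from -1.64, without Med23-deficient replicate 1, to -0.99, without Med23-deficient replicate 3.

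Rps20, another small-subunit member, which lines the mRNA channel, differed by -0.45 (SE 0.20), and its groups overlapped. Rps27 and Rps24 differed by -0.04 (SE 0.14) and 0.07 (SE 0.15).

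Among large-subunit genes, Rpl15 measured 33.93, 24.11 and 25.40 FPKM in Med23-deficient cells, each below the WT stage 2 values (-0.63, SE 0.19, limma's adjusted p = 0.346). Rpl28 measured 128.70, 137.50 and 98.74 FPKM and did not overlap with WT either (-0.60, SE 0.19, adjusted p = 0.379). Rpl35, which sits at the exit of the nascent chain tunnel, measured 246.41, 219.40 and 197.08 FPKM against 315.05, 306.42 and 274.15 (-0.44, SE 0.12, adjusted p = 0.279). These genes did not pass the adjusted threshold. Rplp0 differed by -0.37 (SE 0.16), Rplp1 by -0.08 (SE 0.23), Rplp2 by -0.01 (SE 0.19), Rpl5 by 0.00 (SE 0.13) and Rpl11 by -0.30 (SE 0.15). Rpl29, with 99.48, 188.65 and 84.69 FPKM, had the highest difference of the family, 0.26 (SE 0.36). Without Med23-deficient replicate 2 it was -0.09, and without WT stage 2 replicate 2, at 67.74 FPKM, it was -0.00.

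**Figure D4:**
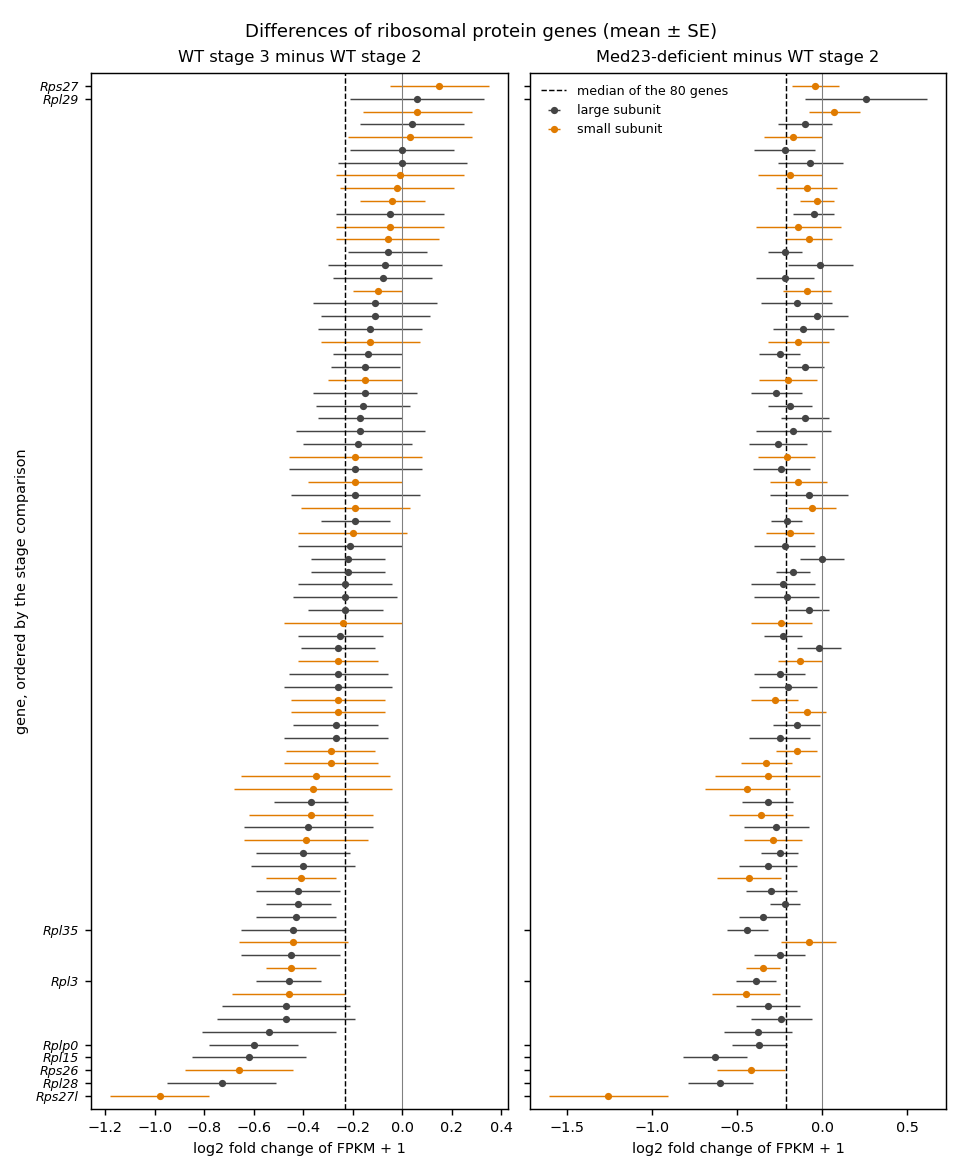
Log2 fold change of FPKM + 1 with its standard error for the 80 ribosomal protein genes, WT stage 3 minus WT stage 2 on the left and Med23-deficient minus WT stage 2 on the right, ordered by the left panel, with the median as a dashed line and a few genes named. The medians are -0.23 and -0.22, and Rps27l lies farthest below 0 in both panels, at -0.98 and -1.26.

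To set each member beside the median of the family, every library was scaled to the same median FPKM of the 80 members. This alternative was chosen after seeing the data. On that scale 5 members were lower and 2 higher in stage 3 at an unadjusted p of at most 0.05, of 80, where 9.57% of all genes tested passed in either direction. The lower ones were Rps27l (-0.76), Rpl28 (-0.49), Rps26 (-0.43), Rpl15 (-0.40) and Rplp0 (-0.36), and the higher ones were Rps27 (0.39) and Rpl30 (0.27). In Med23-deficient cells 2 members passed, Rps27l (-1.14) and Rpl28 (-0.46), where 6.4% of all genes did. With both directions counted, the share of members that passed was not above that of all genes in either comparison. Between stages 6.25% of members were lower, against 3.3% of all genes tested and 4.58% of the other abundant genes. Higher were 2 members and 6.27% of all genes. With Med23 deficiency 2.5% of members were lower, against 2.96% and 6.3%. Between stages the reading thus depends on whether directions are counted apart. Whether these shares differ was not tested, so these counts do not set the named members apart. No member passed limma's adjusted threshold on this scale, with lowest adjusted p of 0.137 and 0.33.

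Rps27l and Rps27 were then set side by side because one had the lowest and the other the highest difference between the stages. Their coding sequences, read from GENCODE vM21 transcripts on the same assembly, are both 252 bases long without the stop codon and differ at 60 positions, which leaves 76.2% identity. They are printed 5′ to 3′ with the differing bases in capitals.

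Rps27: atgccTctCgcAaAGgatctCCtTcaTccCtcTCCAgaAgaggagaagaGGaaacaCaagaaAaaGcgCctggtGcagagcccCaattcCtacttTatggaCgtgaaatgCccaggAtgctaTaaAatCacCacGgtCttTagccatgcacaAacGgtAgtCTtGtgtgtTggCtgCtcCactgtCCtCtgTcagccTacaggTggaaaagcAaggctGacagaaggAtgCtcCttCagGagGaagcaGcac
Rps27l: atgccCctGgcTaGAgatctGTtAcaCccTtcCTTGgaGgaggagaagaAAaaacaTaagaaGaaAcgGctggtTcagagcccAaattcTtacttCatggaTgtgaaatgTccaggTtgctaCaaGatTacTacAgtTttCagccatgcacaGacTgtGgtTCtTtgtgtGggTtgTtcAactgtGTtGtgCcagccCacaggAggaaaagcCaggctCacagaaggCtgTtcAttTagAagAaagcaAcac

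No stretch of more than 11 bases is shared between them. Rps27l amounted to 5.88%, 6.23% and 6.31% of the FPKM of Rps27 in WT stage 2 libraries, to 2.31%, 3.23% and 2.48% in WT stage 3 and to 4.22%, 1.94% and 1.68% in Med23-deficient libraries. The WT stage 2 values had a mean of 6.14% with an SD of 0.224 and lay above all others. A ratio within a library does not depend on how libraries are scaled to each other. With 3 libraries against 3, an exact permutation test cannot go below p = 0.1, so none was made on this ratio, which was chosen after its values were seen. The level of Rps27 is itself uncertain, because only 1.48% of the 75-base windows of its transcript are found in no other gene model. A near-identical copy, Rps27rt, was listed at 205.73 to 317.22 FPKM and amounted to 70.4% to 93.9% of Rps27 with overlapping groups. For Rps27l, 88.0% of the windows were unique.

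Of the other pairs of related genes, Rpl36al stood at 68.3% to 146% of Rpl36a, whose coding sequence differs at 39 of 318 bases, and the groups overlapped. Rpl22l1, a copy that can stand in for Rpl22, was 13.2%, 17.7% and 14.0% of Rpl22 in WT stage 2, 20.3%, 24.6% and 23.7% in WT stage 3 and 16.4%, 16.3% and 14.1% in Med23-deficient cells. The stage 3 values thus lay above the stage 2 values, while neither gene passed the adjusted threshold alone (Rpl22l1 0.20, SE 0.19, and Rpl22 -0.40, SE 0.19). Rpl7l1 lay at 7.87% to 13.8% of Rpl7 with overlap between groups. Rpl6l, listed as protein-coding in the table and as a processed pseudogene in GENCODE vM21, measured 38.81 to 57.70 FPKM.

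Genes of the ribosome that the naming rule does not reach gave values of the same kind. Rps3a1 measured 549.72 to 662.94 FPKM in WT stage 2, 407.13 to 646.51 in stage 3 and 440.55 to 539.32 in Med23-deficient cells. Fau, which encodes a ribosomal protein fused to a ubiquitin-like domain, differed by -0.08 (SE 0.28) between stages. Rack1, a scaffold on the small subunit, differed by -0.35 (SE 0.13, limma's adjusted p = 0.299) between stages and by -0.32 (SE 0.11, adjusted p = 0.427) with Med23 deficiency. Rpl7l1, a relative linked to ribosome assembly, showed 24.19 to 32.72 FPKM in WT stage 2 and 18.14 to 19.44 in stage 3 (-0.57, SE 0.13, adjusted p = 0.11). None of these passed the adjusted threshold.

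Most other lists of translation genes had medians below 0, and 1 gene in them, Taf1d, passed the adjusted test, between stages. Counts of genes lower at an unadjusted p of at most 0.05 are to be read against 7.79% and 6.02% of all genes tested, and 23.9% and 19.4% of other abundant genes, in the stage and Med23 comparisons. Of 37 translation initiation factors, 32 had a mean below 0 in each comparison, with medians of -0.29 and -0.31, and 0 had an adjusted p of at most 0.05. Their summed FPKM was 1649 to 1829 in WT stage 2, 1274 to 1493 in WT stage 3 and 1353 to 1464 in Med23-deficient libraries, so both other groups lay below WT stage 2. At an unadjusted p of at most 0.05, 10 and 16 initiation factors were lower, 27.0% and 43.2% of the list. The 9 elongation factors had medians of -0.27 in both comparisons, and 4 and 3 of them, 44.4% and 33.3%, were lower by the same rule.

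Among 71 ribosome biogenesis genes, medians were -0.19 and -0.17, and 15 were lower in each comparison, 21.1% of the list. The lowest values were those of Npm1, a nucleolar chaperone, between stages (-0.64, limma's adjusted p = 0.232) and of Gnl3, a nucleolar GTPase, with Med23 deficiency (-0.54, adjusted p = 0.277). Of 14 genes of RNA polymerase I transcription, Taf1d alone passed the adjusted threshold in the stage comparison (-0.61, adjusted p = 0.0435). Mitochondrial ribosomal proteins, 78 genes that build a separate ribosome, had medians of -0.24 and -0.18, with 61 and 55 below 0 and 8 and 7 lower at an unadjusted p of at most 0.05, 10.3% and 8.97%. The 18 regulators of pyrimidine-tract mRNAs had medians of -0.06 and 0.00, with 11 and 9 genes below 0. Non-coding hosts of snoRNAs, 12 genes, had medians of 0.08 and -0.05, with 5 and 6 below 0 and 0 lower. The 16 rows of nascent chain factors had medians of -0.19 and -0.25, with 4 and 5 lower. Ribosomal protein pseudogenes, 201 and 202 of them tested, had medians of -0.09 and -0.02, with 4 and 2 lower at an unadjusted p of at most 0.05, 1.99% and 0.99%.

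Cell division genes separated the groups far more. Their summed FPKM over 24 genes was 192 to 226 in WT stage 2, 83.9 to 116 in WT stage 3 and 81.8 to 84.0 in Med23-deficient libraries, so both other groups lay below WT stage 2. Medians were -1.17 and -1.08, and 20 and 23 of them, 83.3% and 95.8%, were lower at an unadjusted p of at most 0.05, against 7.79% and 6.02% of all genes tested. Their part in the differences of the ribosomal protein genes was not tested, and in WT stage 3 it cannot be told apart from the change of stage.

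Many members share sequence with processed pseudogenes, and the authors used reads that hit no more than 2 loci. In the GENCODE vM21 transcript models, 3 members had 75-base windows found in no other gene model throughout, 35 had fewer than 50% of such windows, and 68 had some windows shared with at least 2 other models. Reads from such windows can fall outside that limit, and reads from windows shared with 1 other model can be split between loci. The median member had 52.3% unique windows. Across members the share of unique windows showed a Spearman rho of 0.07 with level, 0.07 with the stage difference and 0.05 with the Med23 difference, given as a description across 80 genes of the same libraries. The level of a member such as Rpl10 (8.14% unique), Rpl9 (8.73%) or Rps12 (10.5%) is therefore uncertain, unlike that of Rps3, which was unique throughout. Of the members described above, Rpl3 (16.8%) and Rpl15 (25.7%) are also uncertain, while Rpl28 (67.1%) and Rplp0 (72.6%) share less.

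**Figure D5:**
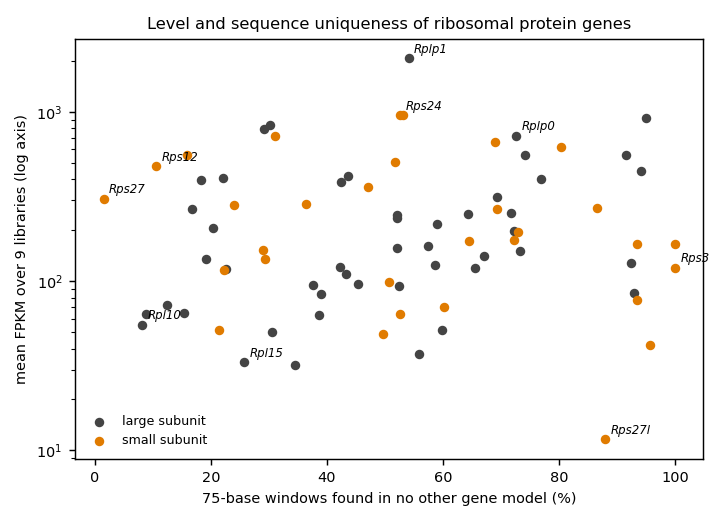
Mean FPKM over 9 libraries (log axis) against the percentage of 75-base windows of the transcript found in no other gene model, for 79 ribosomal protein genes of the large and small subunit. Rps27 lies at 1.48% and Rps27l at 88.0%, and the rho across the family is 0.07.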

How the data were processed

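RNA from 9 iNKT cell libraries was used, with 3 in every group. The authors deposited FPKM per gene as 1 table, rounded to 2 decimals. Per the study's methods and the submitters' processing notes, total RNA libraries for small inputs were trimmed with Trimmomatic 0.36, aligned to mm10 with HISAT2 and quantified on GENCODE annotation with StringTie from reads hitting at most 2 loci. No depth can be derived from these FPKM.

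From them log2(FPKM + 1) was tested with limma 3.58.1 in R 4.3.3 (eBayes with trend), 6 libraries per comparison, over genes above 0 in at least 1 library, with Benjamini-Hochberg adjustment over all of them. Fold changes on this scale understate those of low genes. In simulated libraries with 200 genes changed by a log2 of 2, the fit recovered 67.5% of them at an adjusted p of at most 0.05. Of the genes it called, 6.9% were false. Smaller changes, such as those of most members, were not simulated. Members, lists, tests and named genes were chosen with earlier results of these data known. Named were members with listed roles or copies, the 5 largest and smallest differences and the 5 highest and lowest levels, and for other lists the largest changes. Some genes that this rule names are not reported here. Rpl14, Rpl27a, Rpl35, Rpl6l, Rpl7a, Rpl9, Rps12 and Rps15a, and the pair Rps27 and Rps27l as a ratio, were chosen after their values were seen. The alternatives were other pseudocounts (0.1, 0.01), filters, scales, models and left-out libraries. Python 3.11.15, scipy 1.17.1 and matplotlib 3.10.9 were used for the rest.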

Additional observations from a re-analysis of the deposited data

How the results depend on the processing

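Over the alternatives run, 0 members passed limma's adjusted threshold except in 1. With genes whose mean reached 1 FPKM, 1 member, Rps27l, passed between stages. Members lower between stages at an unadjusted p of at most 0.05 numbered 11 as reported, where 7.79% of all genes tested were lower. They numbered 7 on the upper quartile scale (6.69% of all genes), 44 with Ballgown-style models (6.86%), 26 with the replicate block (7.74%), 20 with the block and the protein-coding scale (5.92%) and 5 on the member-median scale (3.3%). Members higher numbered 1 with Ballgown-style models (5.11%), 1 with the block and protein-coding scale (6.97%) and 2 on the member-median scale (6.27%). With Med23 deficiency the 8 lower members (6.02% of all genes) became 29 on the TPM scale (7.83%), 5 on the protein-coding scale (4.13%), 21 with Ballgown-style models (4.94%), 5 with all 9 libraries in 1 fit (6.54%), 28 with the replicate block (5.84%), 23 without replicate 3 of both groups (5.34%) and 2 on the member-median scale (2.96%). With the block the members' share lower was 32.5% and 35%, against 28.7% and 22.1% of other abundant genes. Leaving out 1 library gave 5 to 21 lower members between stages (6.25% to 7.86% of all genes). With Med23 deficiency it gave 5 to 27 (4.56% to 5.95%). Medians were -0.35 to -0.10 and -0.34 to -0.12, with 0 members higher and 0 passing the adjusted threshold. The members' shares of nuclear protein-coding FPKM were 15.6% to 17.3%, 13.9% to 15.9% and 15.0% to 16.1% in WT stage 2, WT stage 3 and Med23-deficient cells. Over all rows of the table the shares were 1.78%, 1.42% and 1.40%. The TPM scale moved the median of expressed genes to -0.14 between stages and the protein-coding scale to 0.03. With Med23 deficiency these medians were -0.16 and 0.05. The block together with the protein-coding scale, the member-median scale and the omission of replicate 3 in both groups were chosen after seeing the data. The causes were not tested.

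Whether equal replicate numbers mark paired libraries was not tested, and the reported fit did not use them. Same-numbered deviations over 11778 genes correlated at 0.08, 0.03 and 0.16 between stages and at 0.03, 0.00 and 0.14 with Med23 deficiency. Over these genes every library correlated best with its own number in the stage comparison but not in the other. Over 79 members the same-numbered values were -0.16, -0.01 and 0.59 between stages. With Med23 deficiency they were 0.07, -0.01 and 0.20.

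Signs of small differences turned in 10 named members between stages and 14 with Med23 deficiency. Between stages the TPM scale gave Rpl29 -0.04, Rpl30 -0.06, Rps23 -0.08 and Rps24 -0.04, and Ballgown-style models gave Rpl30 -0.04, Rps23 -0.06 and Rps24 -0.01. The protein-coding scale, with or without the block, gave Rplp2 0.03 and Rps10 0.04, quantile normalization gave Rplp2 0.00, and leaving out replicate 3 of both groups gave Rpl29 -0.02. With Med23 deficiency the protein-coding scale, with or without the block, gave Rpl23 0.10, Rpl30 0.01, Rpl35a 0.01, Rplp1 0.03, Rplp2 0.10, Rps10 0.03, Rps27 0.08 and Rps27a 0.03. Quantile normalization gave Rpl23 0.10, Rpl30 0.00, Rplp2 0.07, Rps10 0.00, Rps27 0.07 and Rps27a 0.00, and the upper quartile scale Rpl23 0.06, Rplp2 0.06 and Rps27 0.04. The TPM scale gave Rpl5 -0.13 and Rps24 -0.06, Ballgown-style models Rpl5 -0.02, and leaving out replicate 3 of both groups Rpl5 -0.04.

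With 1 library left out the differences between stages ranged over Rpl18 -0.32 to 0.01, Rpl29 -0.20 to 0.23, Rpl30 -0.12 to 0.20, Rpl36a -0.34 to 0.07, Rplp2 -0.25 to 0.11, Rps10 -0.24 to 0.11, Rps19 -0.35 to 0.00, Rps23 -0.18 to 0.20, Rps24 -0.09 to 0.23 and Rps3 -0.27 to 0.03. With 1 library left out the differences with Med23 deficiency ranged over Rpl23 -0.12 to 0.07, Rpl29 -0.09 to 0.49, Rpl30 -0.26 to 0.03, Rpl36a -0.38 to 0.01, Rpl5 -0.11 to 0.08, Rplp1 -0.22 to 0.05, Rplp2 -0.19 to 0.10, Rps10 -0.19 to 0.03, Rps15 -0.23 to 0.00, Rps24 -0.04 to 0.14, Rps27 -0.18 to 0.06, Rps27a -0.22 to 0.03 and Rps3 -0.28 to 0.00.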
